A study of Mus musculus with 6 samples.

Results

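The chemokine ligand genes of mouse macrophages were described across FSL-1 with nutlin-3a, FSL-1 and M-CSF. A gene was included when a probe set of the array named it alone and its symbol began with Ccl, Cxcl, Cx3cl or Xcl followed by a digit, or was Pf4 or Ppbp. This gave 36 genes of the 22180 genes measured, and all 36 were found in the RefSeq mouse gene table. Only Ccl27a had more than 1 such probe set, of which the one with the higher mean over the 6 arrays was used. Another 33 chemokine probe sets, mostly of the Ccl19, Ccl21 and Ccl27 copies, name several genes each and were not members.

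Chemokines are small secreted proteins that guide leukocytes along a gradient by binding G protein-coupled receptors on the moving cell. Ligands that share a receptor often lie side by side in the genome, as in the cluster of monocyte attractants and the cluster of neutrophil attractants, and macrophages are a main source of both kinds during infection. Toll-like receptors on macrophages signal through NF-kB, which drives many chemokine genes.

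Cells of 3 culture conditions were compared with 2 arrays each, all from bone marrow of C57Bl/6 mice. All cells were first grown for 5 days in 20 ng/ml M-CSF, the growth factor of macrophages. For the next 6 days they received 10 µM nutlin-3a together with 20 ng/ml FSL-1, 20 ng/ml FSL-1 without nutlin-3a, or 50 ng/ml M-CSF. FSL-1, a lipopeptide with 2 acyl chains, is sensed by TLR2 together with TLR6, and its cultures are named multinucleated giant cells in the series design. Nutlin-3a keeps Mdm2 from binding p53 and so raises active p53. Whether the FSL-1 cultures also received M-CSF is not stated in the labels, so a difference between FSL-1 and M-CSF cannot be told apart from a difference in M-CSF. RNA came from sorted cells (the gate was not found in the labels) and was amplified before hybridisation. In such bulk RNA, fewer cells of a type and less RNA per cell cannot be told apart. The labels do not tie the 2 arrays of a group to separate animals or cultures, so the p-values rest on a spread between arrays that may be technical.

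Values are RMA log2 expression per probe set, a scale on which probe sets of different genes are not set against each other. The 2 arrays of a group correlated at 0.993 to 0.995 over all genes, and arrays of different groups at 0.979 to 0.986. All genes had a median level of 5.51, and probe sets with no gene name 4.26. A gene was called when its adjusted p in limma was under 0.05. The 9 measured of 10 macrophage markers had a mean log2 level of 11.08 to 11.13 on the FSL-1 + nutlin-3a arrays, 11.36 to 11.50 on the FSL-1 arrays and 11.37 to 11.49 on the M-CSF arrays, and 0 of the 9 had a group mean at or under the median of unnamed probe sets. Of these 9, Fcgr1, Mrc1 and C1qa were called lower in FSL-1 + nutlin-3a than in FSL-1 and than in M-CSF, Itgam and Adgre1 were called higher and Csf1r lower in FSL-1 than in M-CSF. Among the markers of other cells, means lay at 4.88 to 4.96 in FSL-1 + nutlin-3a, 5.11 to 5.13 in FSL-1 and 4.65 to 4.66 in M-CSF for 12 neutrophil genes, and at 5.41 to 5.50, 5.47 to 5.54 and 5.36 to 5.39 in the same order of groups for 9 of 10 dendritic cell genes. They lay at 4.54 to 4.59, 4.34 to 4.51 and 4.39 to 4.51 for 8 of 10 lymphocyte genes, at 4.97 to 5.03, 5.17 to 5.22 and 4.97 to 5.02 for 8 fibroblast genes, and at 3.93 to 4.01, 3.89 to 3.90 and 3.82 to 4.11 for 8 genes of eosinophils, basophils and mast cells. Of the dendritic cell genes Ccr7 was called higher in FSL-1 than in M-CSF and Itgax higher in FSL-1 + nutlin-3a than in FSL-1 and than in M-CSF, of the lymphocyte genes Cd79b higher in FSL-1 than in M-CSF, and of the fibroblast genes Col1a2 lower in FSL-1 + nutlin-3a than in FSL-1 and Pdgfrb higher in FSL-1 + nutlin-3a than in M-CSF. With arrays left out 1 at a time, the calls of Fcgr1 against FSL-1 and of Mrc1 and Itgax against M-CSF were kept, those of Cd79b and Pdgfrb were lost whichever array was left out, and each of the others was lost without at least 1 array. The part of such cells in the chemokine values was not tested.

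With FSL-1, 10 of the 36 chemokine genes were called higher and 1 lower than with M-CSF. Over all genes, 3.91% were called higher and 2.95% lower in this comparison. The 10 that rose were Ccl12, Ccl7, Ccl2, Ccl8, Ccl6, Cxcl2, Cxcl16, Ccl3, Ccl4 and Pf4, and the 1 that fell was Ccl5. The median log2 change was 0.10 over the 36 genes and -0.01 over all genes. When nutlin-3a was added to FSL-1, 7 chemokine genes were called lower and 2 higher than with FSL-1 alone, where 4.12% of all genes were called lower and 2.38% higher. The 7 that fell were Ccl12, Ccl7, Ccl2, Ccl8, Pf4, Cxcl2 and Ccl9, and the 2 that rose were Ccl5 and Ccl25. The median log2 change was -0.08 over the 36 genes and 0.02 over all genes. Both comparisons use the same FSL-1 arrays, so an array-wide deviation of these would move a gene in opposite directions in them. When FSL-1 + nutlin-3a was compared with M-CSF, which leaves those arrays out of the difference, 7 chemokine genes were called higher, namely Ccl6, Ccl4, Cxcl16, Ccl12, Ccl3, Ccl2 and Cxcl14, and 0 were called lower by limma, with 3 lower at an unadjusted p under 0.05. Over all genes 4.58% were called higher and 4.94% lower there. Only Ccl12 and Ccl2 were called in all 3 comparisons, 14 genes were called in at least 1, and 22 in none.

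**Figure D1:**
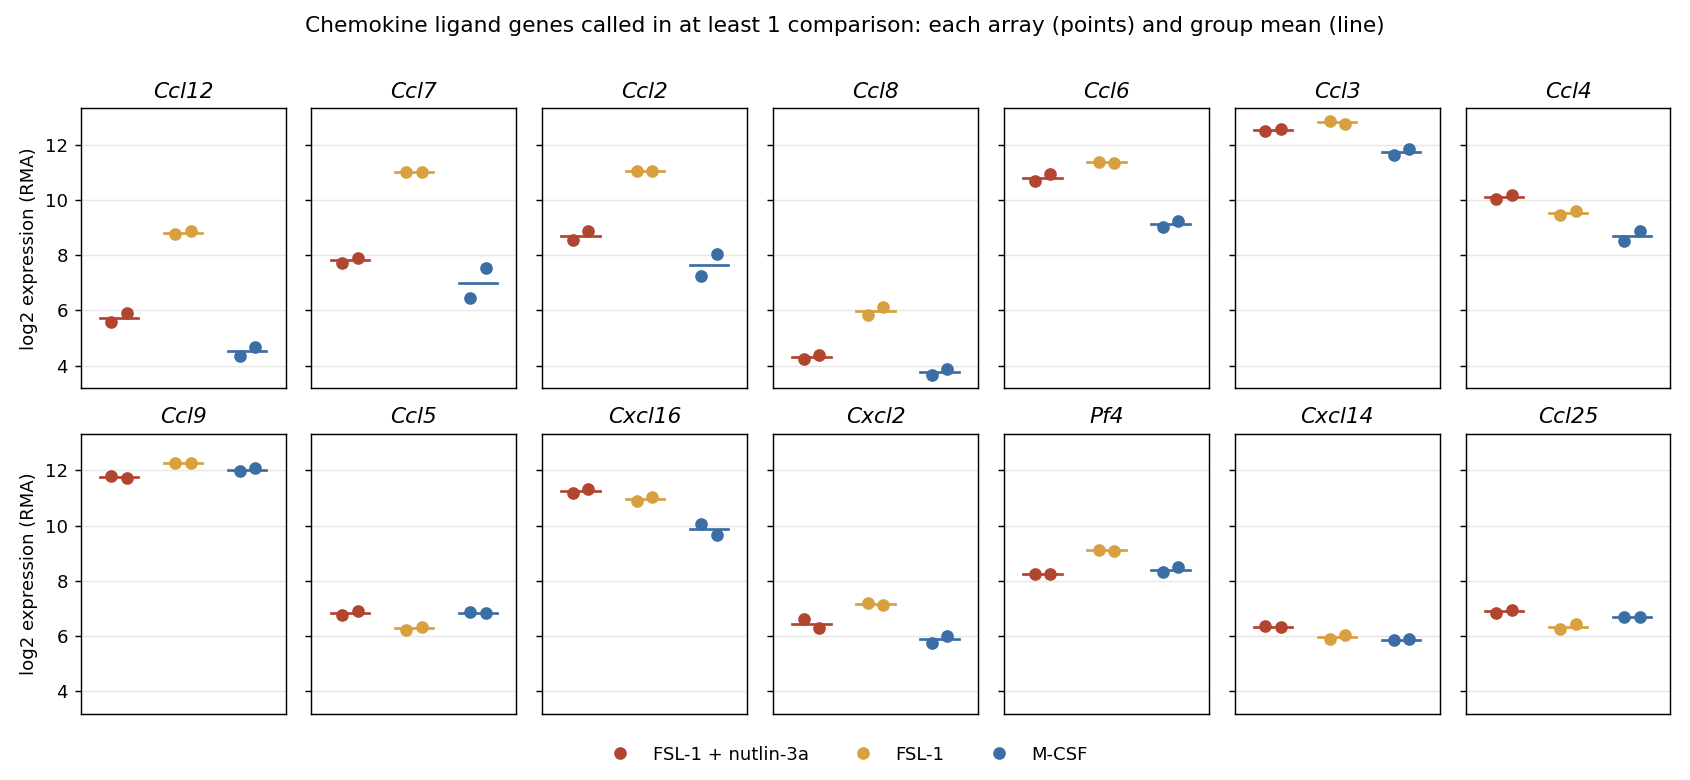
RMA log2 expression (vertical axis) of the 14 chemokine genes called in at least 1 comparison, in each of the 6 arrays (points) with the group mean (lines, n = 2 arrays), for FSL-1 + nutlin-3a, FSL-1 and M-CSF from left to right. Ccl12, Ccl7, Ccl2 and Ccl8 stand high on both FSL-1 arrays and low on the 4 others, whereas Ccl6, Ccl3, Ccl4 and Cxcl16 stand above M-CSF on all 4 arrays with FSL-1.

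The ligands of CCR2, the receptor that brings monocytes out of the bone marrow and into tissue, had the largest changes of the family in both comparisons that use the FSL-1 arrays. All 3 measured members, Ccl2, Ccl7 and Ccl12, rose with FSL-1 and all 3 fell when nutlin-3a was added. Ccl12 and Ccl2 still stood above M-CSF in the presence of nutlin-3a. The median log2 change of the 3 was 4.01 for FSL-1 against M-CSF, -3.09 for FSL-1 + nutlin-3a against FSL-1 and 1.07 for FSL-1 + nutlin-3a against M-CSF.

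Ccl12 encodes MCP-5, a monocyte attractant found in mice. Its log2 level was 5.57 and 5.90 with FSL-1 + nutlin-3a, 8.78 and 8.87 with FSL-1, and 4.37 and 4.67 with M-CSF. The 3 groups did not overlap. The difference between FSL-1 and M-CSF was 4.31 on the log2 scale (SE 0.158, adjusted p = 8.29e-06), or 19.8-fold, the largest of the family. Against FSL-1, the level with nutlin-3a was 8.50-fold lower (log2 change -3.09, SE 0.158, adjusted p = 0.000132), and against M-CSF it was 2.33-fold higher (log2 change 1.22, adjusted p = 0.00263). Both M-CSF arrays lay near 4.26, the median of probe sets with no gene name. The size of the differences from M-CSF is therefore less certain.

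Ccl7 encodes MCP-3, which also binds CCR1 and CCR3. It had 7.72 and 7.91 with FSL-1 + nutlin-3a, 11.00 and 11.01 with FSL-1, and 6.45 and 7.54 with M-CSF. The 2 M-CSF arrays lay further apart than those of the other groups, yet all 3 groups stayed separate. FSL-1 exceeded M-CSF by 4.01 (SE 0.300, adjusted p = 0.000279), or 16.1-fold, and this change was 3.46 to 4.56 when each array was left out in turn. With nutlin-3a the level fell by 3.19 relative to FSL-1 (SE 0.300, adjusted p = 0.0013), or 9.12-fold, the largest decrease of the family. Its difference of 0.82 between FSL-1 + nutlin-3a and M-CSF was not called (adjusted p = 0.142). Without the second M-CSF array that difference was 1.37 and was called (adjusted p = 0.00437).

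Ccl2 encodes MCP-1, the ligand best known for recruiting inflammatory monocytes. Its level was 8.54 and 8.89 with FSL-1 + nutlin-3a, 11.05 and 11.04 with FSL-1, and 7.25 and 8.04 with M-CSF. Both FSL-1 arrays were high, both M-CSF arrays were low, and the arrays with nutlin-3a fell between them. FSL-1 stood above M-CSF by 3.40 (SE 0.243, adjusted p = 0.000208), or 10.5-fold, and the level with nutlin-3a stood below FSL-1 by 5.04-fold (log2 change -2.33, adjusted p = 0.00197). The remaining difference of 1.07 between FSL-1 + nutlin-3a and M-CSF had an adjusted p of 0.0316. With arrays left out 1 at a time, that last call was lost without the first M-CSF array, without either FSL-1 array and without either FSL-1 + nutlin-3a array, where the change ranged from 0.67 to 1.46 over all left-out arrays and the adjusted p reached 0.156.

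Ccl8, which in mice acts on CCR8 and attracts T cells and other leukocytes carrying it, had the same order of groups. Its level was 4.23 and 4.37 with FSL-1 + nutlin-3a, 5.82 and 6.13 with FSL-1, and 3.65 and 3.88 with M-CSF. No 2 groups overlapped, although the levels without FSL-1 and with nutlin-3a lay near or below the median of 4.26 of probe sets with no gene name. The measured difference between FSL-1 and M-CSF was 2.21 on the log2 scale (SE 0.151, adjusted p = 0.000172). Since both M-CSF arrays lay below that median, they were also set to it, which put FSL-1 at least 3.28-fold higher. FSL-1 + nutlin-3a lay below FSL-1 by 3.19-fold (log2 change -1.68, adjusted p = 0.00113). The difference of 0.54 from M-CSF was not called (adjusted p = 0.0666), except with dim genes filtered and with a replicate block. Ccl1, the other CCR8 ligand, had 4.76 and 4.63 with FSL-1 + nutlin-3a, 4.68 and 4.88 with FSL-1, and 4.72 and 4.82 with M-CSF, and its groups overlapped in every comparison. Its change between FSL-1 and M-CSF was 0.01 with a 95% interval of -0.284 to 0.299.

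These genes are neighbours on mouse chromosome 11. In the RefSeq table (GRCm38.p6), Ccl2, Ccl7, Ccl11, Ccl12, Ccl8 and Ccl1 follow each other in this order, and a locus was taken as genes whose starts lie within 1000000 bases of the next. Of these 6 genes, 4 rose with FSL-1 and the same number fell with nutlin-3a, while Ccl11 and Ccl1 were called in neither. Ccl11, or eotaxin, lies between Ccl7 and Ccl12 and attracts eosinophils through CCR3. It had 4.91 and 4.62 with FSL-1 + nutlin-3a, 5.10 and 4.86 with FSL-1, and 4.83 and 4.94 with M-CSF, a change of 0.09 between FSL-1 and M-CSF (95% interval -0.248 to 0.429). The median change over the 6 genes was 2.81 for FSL-1 against M-CSF (2.56 with Ccl8 at its lower bound), -2.0 for FSL-1 + nutlin-3a against FSL-1, and 0.68 for FSL-1 + nutlin-3a against M-CSF.

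**Figure D2:**
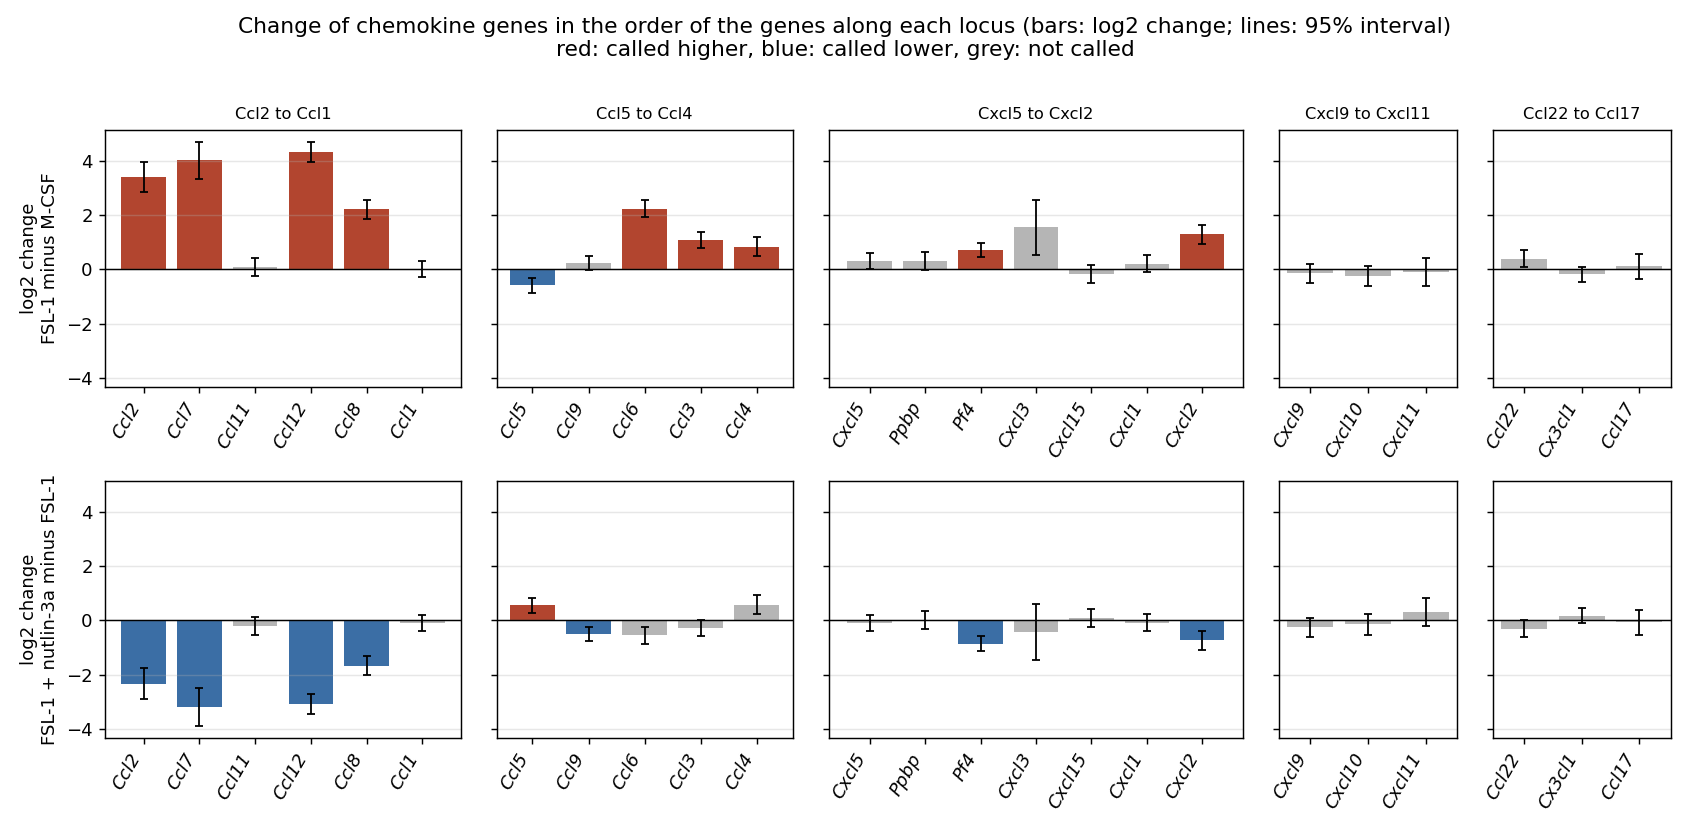
Log2 change (vertical axis, RMA scale) of the chemokine genes at the 5 loci that hold 3 or more of them, in the order of the genes along the chromosome, for FSL-1 minus M-CSF (upper row) and FSL-1 + nutlin-3a minus FSL-1 (lower row); lines are 95% intervals from limma, red is called higher, blue called lower and grey not called. In the locus from Ccl2 to Ccl1, bars of 2.21 to 4.31 in the upper row stand beside those of Ccl11 and Ccl1 near 0, and the Cxcl9 to Cxcl11 locus has no coloured bar.

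Of the 36 genes, 25 had a promoter of 300 bases in the RefSeq table, from 250 bases before the start site to 50 after it. The 120 bases before the start site are shown for Ccl12 and Ccl8, the 2 genes of this locus with a promoter in the table that rose with FSL-1, at chr11:82101725-82101844 (plus strand) and chr11:82115065-82115184 (plus strand) of GRCm38.p6. They are written 5′ to 3′ on the strand of the gene, and capitals would mark a match to the NF-kB consensus.
Ccl12: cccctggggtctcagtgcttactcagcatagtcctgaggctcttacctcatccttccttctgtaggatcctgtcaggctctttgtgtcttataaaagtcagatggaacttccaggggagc
Ccl8: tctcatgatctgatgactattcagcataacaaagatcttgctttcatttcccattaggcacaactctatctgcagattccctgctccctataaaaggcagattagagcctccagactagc
Neither stretch holds a match to the consensus letters, which is a description of these windows and says nothing about binding elsewhere.

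A neighbouring locus on the same chromosome holds Ccl5, Ccl9, Ccl6, Ccl3 and Ccl4, whose products attract monocytes, macrophages and T cells. Of these 5 genes, 3 rose and 1 fell with FSL-1, with a median change of 0.83. When nutlin-3a was added, 1 rose and 1 fell relative to FSL-1, with a median of -0.29. Relative to M-CSF, 3 were higher in FSL-1 + nutlin-3a, with a median of 0.79.

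Ccl6, a CCR1 ligand made by mouse macrophages, had 10.68 and 10.94 with FSL-1 + nutlin-3a, 11.39 and 11.34 with FSL-1, and 9.04 and 9.22 with M-CSF. The 4 arrays with FSL-1 stood above both M-CSF arrays. FSL-1 exceeded M-CSF by 2.24 (SE 0.136, adjusted p = 0.000103), or 4.71-fold, and FSL-1 + nutlin-3a exceeded M-CSF by 1.68 (adjusted p = 0.000255), or 3.21-fold. Its difference of -0.55 between FSL-1 + nutlin-3a and FSL-1 missed the threshold at an adjusted p of 0.0534, though the groups did not overlap. This difference was called under 4 alternatives, namely eBayes with trend and robust, each array centred on its median, dim genes filtered and array weights.

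Ccl3 and Ccl4 encode MIP-1 alpha and MIP-1 beta. Ccl3 had 12.48 and 12.56 with FSL-1 + nutlin-3a, 12.86 and 12.76 with FSL-1, and 11.62 and 11.85 with M-CSF. It was 2.10-fold higher with FSL-1 than with M-CSF (log2 change 1.07, adjusted p = 0.00273) and 1.73-fold higher with FSL-1 + nutlin-3a than with M-CSF (log2 change 0.79, adjusted p = 0.00729). The difference between FSL-1 + nutlin-3a and FSL-1 was -0.29 and was not called, except with eBayes with trend and robust. Ccl4 had its highest values on the arrays with nutlin-3a, at 10.04 and 10.18 with FSL-1 + nutlin-3a, 9.46 and 9.61 with FSL-1, and 8.52 and 8.89 with M-CSF. FSL-1 + nutlin-3a exceeded M-CSF by 1.41 (adjusted p = 0.0011), or 2.65-fold. FSL-1 exceeded M-CSF by 0.83 (adjusted p = 0.0179), a call lost without the first M-CSF array or either FSL-1 array, with changes of 0.65 to 1.02 and adjusted p up to 0.128. The further 0.57 between FSL-1 + nutlin-3a and FSL-1 was not called (adjusted p = 0.0693), though the groups did not overlap. It was called with eBayes with trend and robust and with dim genes filtered.

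Ccl9, another CCR1 ligand, and Ccl5, or RANTES, moved by smaller amounts. Ccl9 had 11.80 and 11.72 with FSL-1 + nutlin-3a, 12.28 and 12.26 with FSL-1, and 11.97 and 12.09 with M-CSF. It fell by 0.51 with FSL-1 + nutlin-3a relative to FSL-1 (adjusted p = 0.0397), with no call against M-CSF for either treatment. Both differences from M-CSF were called with eBayes with trend and robust. Ccl5 had 6.76 and 6.92 with FSL-1 + nutlin-3a, 6.23 and 6.32 with FSL-1, and 6.88 and 6.83 with M-CSF. Thus both FSL-1 arrays were the low ones for Ccl5. It fell by 0.58 with FSL-1 relative to M-CSF (adjusted p = 0.0271) and was higher by 0.56 with FSL-1 + nutlin-3a than with FSL-1 (adjusted p = 0.0334). The calls of Ccl9 and Ccl5 for FSL-1 + nutlin-3a against FSL-1 were both lost whichever 1 of the 6 arrays was left out, with adjusted p of 0.0538 to 0.196 for Ccl9 and 0.0514 to 0.194 for Ccl5. The call of Ccl5 against M-CSF was lost without either M-CSF array or either FSL-1 array, with changes of -0.62 to -0.54 and adjusted p up to 0.174. For Ccl9 the changes were -0.55 to -0.47, and for Ccl5 in the nutlin-3a comparison 0.48 to 0.64.

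The promoter windows of Ccl6 and Ccl3, the 2 genes of this locus that rose with FSL-1 and have a promoter in the table, lie at chr11:83593088-83593207 (minus strand) and chr11:83649379-83649498 (minus strand) of GRCm38.p6. They are shown for the 120 bases before the start site, with no base in capitals since neither holds the consensus letters there.
Ccl6: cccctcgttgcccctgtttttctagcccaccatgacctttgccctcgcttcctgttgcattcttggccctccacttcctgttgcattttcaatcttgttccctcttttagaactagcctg
Ccl3: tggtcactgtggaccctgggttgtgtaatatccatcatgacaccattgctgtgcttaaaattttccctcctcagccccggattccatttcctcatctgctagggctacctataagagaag

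CXCR2 is the main chemokine receptor of neutrophils, and its ligands form a locus on chromosome 5 together with Pf4. Of the 6 ligands assigned to this receptor, Cxcl2 alone was called, higher with FSL-1 than with M-CSF and lower with FSL-1 + nutlin-3a than with FSL-1. Cxcl2 encodes MIP-2 and had 6.61 and 6.28 with FSL-1 + nutlin-3a, 7.21 and 7.14 with FSL-1, and 5.76 and 6.01 with M-CSF. The 3 groups did not overlap. Its level with FSL-1 was 2.44-fold that with M-CSF (log2 change 1.29, SE 0.152, adjusted p = 0.00267). Relative to FSL-1, the level with nutlin-3a was 1.66-fold lower (log2 change -0.73, adjusted p = 0.0314), and it lost its call without either FSL-1 array or the second FSL-1 + nutlin-3a array, with changes of -0.90 to -0.57 and adjusted p up to 0.175. The difference of 0.56 between FSL-1 + nutlin-3a and M-CSF was not called (adjusted p = 0.06). It was called with eBayes with trend and robust, with dim genes filtered and with a crossed replicate block.

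Cxcl3 had the widest spread of the family, at 4.47 and 3.11 with FSL-1 + nutlin-3a, 3.83 and 4.61 with FSL-1, and 2.34 and 3.01 with M-CSF. Both FSL-1 arrays lay above both M-CSF arrays, but its brightest group mean was below 4.26, the median of probe sets with no gene name. The change of 1.54 between FSL-1 and M-CSF had an SE of 0.442 and was not called (adjusted p = 0.0857, 95% interval 0.522 to 2.567). Without either FSL-1 + nutlin-3a array it was called, with an adjusted p of 0.0363. The change against M-CSF with FSL-1 + nutlin-3a, 1.11, was not called with all arrays (adjusted p = 0.174), but was called without the second FSL-1 + nutlin-3a array, with a change of 1.79 and an adjusted p of 0.0429. Cxcl1, the KC chemokine, had 5.62 and 5.37 with FSL-1 + nutlin-3a, 5.65 and 5.50 with FSL-1, and 5.36 and 5.37 with M-CSF. Its change of 0.22 between FSL-1 and M-CSF had a 95% interval of -0.087 to 0.518, against 0.939 to 1.641 for Cxcl2.

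Cxcl5, or LIX, had 4.50 and 4.32 with FSL-1 + nutlin-3a, 4.45 and 4.54 with FSL-1, and 4.11 and 4.27 with M-CSF. Ppbp, whose product is stored in platelets and processed to a CXCR2 ligand, had 4.69 and 4.87 with FSL-1 + nutlin-3a, 4.62 and 4.87 with FSL-1, and 4.53 and 4.32 with M-CSF. Cxcl15, or lungkine, had 3.89 and 4.15 with FSL-1 + nutlin-3a, 3.87 and 4.0 with FSL-1, and 3.98 and 4.21 with M-CSF. None of these 3 was called, and their changes between FSL-1 and M-CSF were 0.30, 0.32 and -0.16 in the order given. The median change of the 6 CXCR2 ligands was 0.31 for FSL-1 against M-CSF, -0.09 for FSL-1 + nutlin-3a against FSL-1 and 0.29 for FSL-1 + nutlin-3a against M-CSF.

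Some neutrophil markers were also called. Of 12 measured, S100a8, Stfa2l1 and Cxcr2 were called higher in FSL-1 than in M-CSF. Stfa2l1 was called lower in FSL-1 + nutlin-3a than in FSL-1, and S100a8 higher in FSL-1 + nutlin-3a than in M-CSF. In this order, the called shares were 25%, 8.33% and 8.33%, against 6.86%, 6.5% and 9.51% of all genes. The changes of the 12 were 9 positive and 3 negative for FSL-1 against M-CSF. They were 4 positive and 8 negative for FSL-1 + nutlin-3a against FSL-1. Elane, not called, changed by -0.45 and 0.44 in these 2 comparisons. The group means of S100a8 and Stfa2l1 in M-CSF, and of Stfa2l1 in FSL-1 + nutlin-3a, lay under the median of unnamed probe sets, so only bounds are given, with arrays below that median set to it. S100a8 was at least 4.66-fold higher in FSL-1 and at least 3.97-fold higher in FSL-1 + nutlin-3a than in M-CSF, and Stfa2l1 was at least 2.70-fold higher in FSL-1 than in either other group. Cxcr2 was higher by 0.60 in FSL-1 than in M-CSF, a call lost with the compared groups alone and without the first M-CSF array or any of the 4 arrays with FSL-1. Of the 12 genes, 5 in FSL-1 + nutlin-3a, 3 in FSL-1 and 6 in M-CSF had a group mean at or under the median of unnamed probe sets, with Ly6g, Camp and Retnlg so in all 3 groups. The part of neutrophils in the Cxcl2 values was not tested.

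Pf4 encodes platelet factor 4, a chemokine of platelet granules that macrophages also express, and lies between Ppbp and Cxcl3. It had 8.25 and 8.26 with FSL-1 + nutlin-3a, 9.12 and 9.10 with FSL-1, and 8.31 and 8.49 with M-CSF. Both FSL-1 arrays stood above the other 4. FSL-1 exceeded M-CSF by 0.71 (adjusted p = 0.0121), or 1.64-fold, and FSL-1 + nutlin-3a lay below FSL-1 by 1.81-fold (log2 change -0.86, adjusted p = 0.00613). Against M-CSF, the difference of -0.15 with FSL-1 + nutlin-3a was not called. The first call was lost without the first M-CSF array or either FSL-1 array, with changes of 0.62 to 0.80 and adjusted p up to 0.0934, and the second without either FSL-1 array, with adjusted p up to 0.0603. The 7 measured of 10 megakaryocyte and platelet markers had means of 5.88 to 5.96 in FSL-1 + nutlin-3a, 5.77 to 5.80 in FSL-1 and 5.86 to 5.95 in M-CSF. Of these 7, Itgb3 was called lower in FSL-1 than in M-CSF (log2 change -0.64), a call lost with the compared groups alone and without any 1 array other than the first M-CSF array. Gp9 and Treml1 alone were higher at an unadjusted p under 0.05, in FSL-1 + nutlin-3a relative to FSL-1, and limma called 0 of the 7 higher in any comparison. The part of platelets in the Pf4 values was not tested.

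Across the locus of 7 genes, which runs in the order Cxcl5, Ppbp, Pf4, Cxcl3, Cxcl15, Cxcl1 and Cxcl2, 2 rose with FSL-1 and 2 fell with nutlin-3a, with median changes of 0.32 and -0.09. The 120 bases before the start sites of Cxcl1, Cxcl2 and Cxcl3 are shown because these 3 neighbours share an NF-kB match yet differ in their calls. They lie at chr5:90891125-90891244 (plus strand), chr5:90903779-90903898 (plus strand) and chr5:90785981-90786100 (plus strand) of GRCm38.p6, with the match in capitals.
Cxcl1: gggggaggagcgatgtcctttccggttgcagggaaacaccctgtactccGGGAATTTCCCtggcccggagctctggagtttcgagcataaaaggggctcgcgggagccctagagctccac
Cxcl2: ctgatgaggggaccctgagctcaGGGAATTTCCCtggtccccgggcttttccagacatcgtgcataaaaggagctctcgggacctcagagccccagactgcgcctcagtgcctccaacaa
Cxcl3: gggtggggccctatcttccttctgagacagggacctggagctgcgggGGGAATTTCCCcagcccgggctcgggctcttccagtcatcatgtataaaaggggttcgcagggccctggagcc
The capital letters are the same in all 3, and begin 71 bases before the start site in Cxcl1, 97 in Cxcl2 and 73 in Cxcl3.

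CXCL9, CXCL10 and CXCL11 are induced by interferons and draw activated T cells and NK cells through CXCR3. Their genes lie beside each other on chromosome 5, and limma called none of the 3 in any comparison, with Cxcl9 and Cxcl10 lower in FSL-1 + nutlin-3a than in M-CSF at an unadjusted p under 0.05. Cxcl10 had 5.56 and 5.36 with FSL-1 + nutlin-3a, 5.48 and 5.74 with FSL-1, and 6.02 and 5.69 with M-CSF, with a change of -0.25 between FSL-1 and M-CSF (95% interval -0.616 to 0.123). Cxcl9 had 3.58 and 3.79 with FSL-1 + nutlin-3a, 4.11 and 3.77 with FSL-1, and 4.01 and 4.16 with M-CSF, all under the median of unnamed probe sets. Cxcl11 had 5.09 and 4.44 with FSL-1 + nutlin-3a, 4.52 and 4.38 with FSL-1, and 4.35 and 4.77 with M-CSF, so that its groups overlapped throughout. The promoter window of Cxcl10 at chr5:92348890-92349009 (minus strand) of GRCm38.p6 also holds the NF-kB consensus, in capitals, and is shown as a contrast to Cxcl2.
Cxcl10: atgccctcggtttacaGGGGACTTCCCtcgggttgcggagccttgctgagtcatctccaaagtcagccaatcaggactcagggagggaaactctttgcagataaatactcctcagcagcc
This match begins 104 bases before the start site, overlapped by another beginning at 103, and a further one outside the printed window begins at 159.

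**Figure D3:**
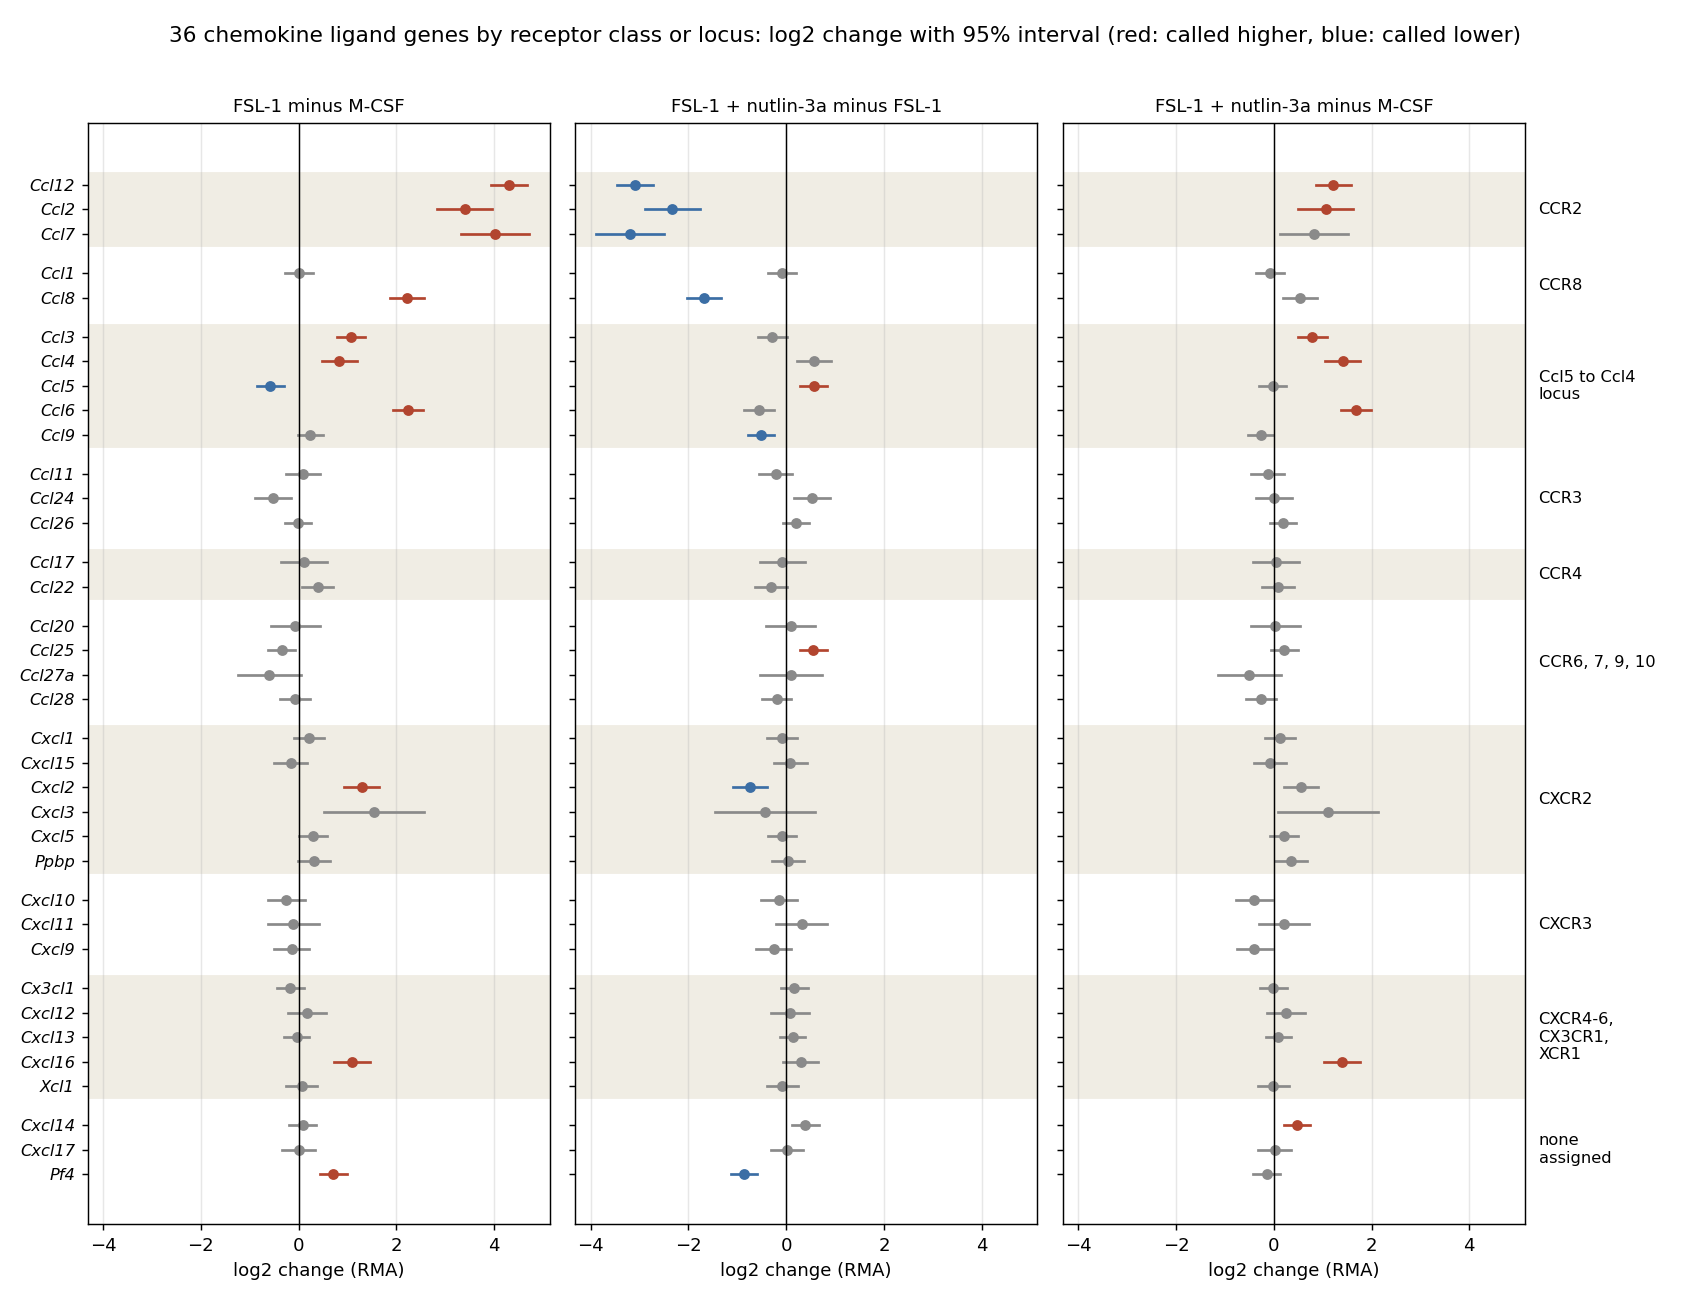
Log2 change (horizontal axis, RMA scale) of all 36 chemokine ligand genes with 95% intervals from limma (lines), grouped by the receptor that the ligand is assigned to, or by locus for the 5 genes from Ccl5 to Ccl4, for FSL-1 minus M-CSF, FSL-1 + nutlin-3a minus FSL-1 and FSL-1 + nutlin-3a minus M-CSF; red is called higher, blue called lower and grey not called. The CCR2 ligands move by 3.40 to 4.31 in the left panel and by -3.19 to -2.33 in the middle one, and the CXCR3, CCR3 and CCR4 classes hold no called gene.

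Cxcl16 is a transmembrane chemokine of macrophages that binds CXCR6 on T cells and NKT cells and also takes up oxidised lipoprotein. It had 11.20 and 11.33 with FSL-1 + nutlin-3a, 10.88 and 11.05 with FSL-1, and 10.07 and 9.67 with M-CSF. All 4 arrays with FSL-1 stood above the M-CSF arrays. FSL-1 + nutlin-3a exceeded M-CSF by 1.39 (adjusted p = 0.00134), or 2.63-fold. FSL-1 exceeded M-CSF by 1.1 (adjusted p = 0.00643), or 2.14-fold, a call lost without the second FSL-1 array, where the adjusted p was 0.0613 and the changes over left-out arrays were 0.90 to 1.29. Nutlin-3a added 0.30 to the FSL-1 level, which was not called (adjusted p = 0.333). The 4 other ligands placed in this class were called in no comparison. Cx3cl1, or fractalkine, had 5.58 and 5.46 with FSL-1 + nutlin-3a, 5.31 and 5.40 with FSL-1, and 5.60 and 5.46 with M-CSF. The homeostatic CXCR4 ligand Cxcl12 had 5.69 and 5.51 with FSL-1 + nutlin-3a, 5.57 and 5.49 with FSL-1, and 5.12 and 5.59 with M-CSF. Both stayed near the median of all genes. Cxcl13, which guides B cells through CXCR5, had 5.11 and 5.10 with FSL-1 + nutlin-3a, 4.97 and 4.97 with FSL-1, and 4.96 and 5.05 with M-CSF. Xcl1, a lymphocyte product that binds XCR1 on dendritic cells, had 4.49 and 4.65 with FSL-1 + nutlin-3a, 4.78 and 4.52 with FSL-1, and 4.52 and 4.65 with M-CSF.

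Cxcl14, for which no receptor class was assigned, had its highest values on the arrays with nutlin-3a. It had 6.38 and 6.31 with FSL-1 + nutlin-3a, 5.88 and 6.03 with FSL-1, and 5.84 and 5.90 with M-CSF. FSL-1 + nutlin-3a exceeded M-CSF by 0.47 (adjusted p = 0.0433), and the difference of 0.39 from FSL-1 was not called (adjusted p = 0.0976), except with dim genes filtered. The call against M-CSF was lost whichever of the 6 arrays was left out, with changes of 0.44 to 0.51 and adjusted p of 0.0721 to 0.169. Cxcl17, a mucosal chemokine, had 5.61 and 5.71 with FSL-1 + nutlin-3a, 5.66 and 5.63 with FSL-1, and 5.46 and 5.83 with M-CSF, and was not called.

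Ccl25 is a CCR9 ligand known from thymus and small intestine. It had 6.85 and 6.95 with FSL-1 + nutlin-3a, 6.26 and 6.43 with FSL-1, and 6.71 and 6.67 with M-CSF, so that the FSL-1 arrays were the low ones. FSL-1 + nutlin-3a exceeded FSL-1 by 0.55 (adjusted p = 0.036), a call lost whichever of the 6 arrays was left out, with changes of 0.47 to 0.64 and adjusted p of 0.055 to 0.214. The difference of -0.34 between FSL-1 and M-CSF was not called (adjusted p = 0.147). Ccl20, the CCR6 ligand, had 5.61 and 5.76 with FSL-1 + nutlin-3a, 5.73 and 5.45 with FSL-1, and 5.32 and 5.99 with M-CSF. The CCR10 ligand Ccl28 had 5.42 and 5.15 with FSL-1 + nutlin-3a, 5.46 and 5.49 with FSL-1, and 5.51 and 5.58 with M-CSF. Neither was called in any comparison. Ccl27a, a CCR10 ligand of skin, had 5.44 and 6.26 with FSL-1 + nutlin-3a, 5.67 and 5.83 with FSL-1, and 6.63 and 6.07 with M-CSF, and its change of -0.60 between FSL-1 and M-CSF was not called (adjusted p = 0.268). Its other probe set had 5.56 and 5.20 with FSL-1 + nutlin-3a, 5.09 and 4.99 with FSL-1, and 5.21 in both M-CSF arrays. The 7 probe sets of Ccl27 copies that name several genes had changes of -0.596 to 0.029 between FSL-1 and M-CSF. Their lowest changes against M-CSF, -0.596 with FSL-1 and -0.497 with FSL-1 + nutlin-3a, equal those of the Ccl27a probe set to the digits given. Whether the probe set used for Ccl27a measures this copy alone was not tested.

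The ligands of CCR3 and CCR4, which draw eosinophils and type 2 helper T cells, were not called by limma in any comparison; Ccl24 (FSL-1 against M-CSF, and FSL-1 + nutlin-3a against FSL-1) and Ccl22 (FSL-1 against M-CSF) had an unadjusted p under 0.05. Ccl24, or eotaxin-2, had 5.22 and 5.33 with FSL-1 + nutlin-3a, 4.77 and 4.72 with FSL-1, and 5.49 and 5.05 with M-CSF. Both FSL-1 arrays were the lowest, at a change of -0.52 from M-CSF (adjusted p = 0.0998) and of 0.53 between FSL-1 + nutlin-3a and FSL-1 (adjusted p = 0.0972). Without the second M-CSF array, the change was -0.74 and was called (adjusted p = 0.0393). Ccl22, or MDC, differed by 0.39 between FSL-1 and M-CSF (adjusted p = 0.152), and Ccl17 by 0.11 and Ccl26 by -0.01. At the locus Ccl22, Cx3cl1 and Ccl17 on chromosome 8, 0 of 3 genes were called by limma in any comparison and Ccl22 alone had an unadjusted p under 0.05.

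In all, the 22 genes called in no comparison had changes of -0.60 for Ccl27a to 1.54 for Cxcl3 between FSL-1 and M-CSF, and of -0.43 for Cxcl3 to 0.53 for Ccl24 between FSL-1 + nutlin-3a and FSL-1. A total of 14 members had no group mean above 5.51, the median of all genes, and limma called 0 of these 14 in any of the 3 comparisons, although Ccl22, Ccl24, Cxcl3, Cxcl5, Cxcl9 and Ppbp had an unadjusted p under 0.05 in at least 1. For 4 of them, Ccl17, Cxcl15, Cxcl3 and Cxcl9, every group mean was under 4.26, where a change may not be measurable on this array. The median SD between the 2 arrays of a group over the 36 genes was 0.114 in FSL-1 + nutlin-3a, 0.0966 in FSL-1 and 0.162 in M-CSF, against 0.104, 0.0917 and 0.106 over all genes in the same order.

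Over the 28 promoters of the 25 genes found in the table, 28.6% held the NF-kB consensus on either strand, against 8.46% of 32851 mouse promoters of the same length. The genes with a match were Ccl1, Ccl20, Ccl27a, Ccl9, Cxcl1, Cxcl10, Cxcl2 and Cxcl3. Of these 8, Cxcl2 and Ccl9 were called in at least 1 comparison, as were 14 of all 36 members, a set that includes genes with no promoter in the table. The called members Ccl12, Ccl25, Ccl3, Ccl6, Ccl8, Cxcl14 and Pf4 had a promoter without a match. Ccl2, Ccl7, Ccl4, Ccl5 and Cxcl16 were called but had no promoter in the table. Whether a match goes with a call was not tested. The interferon response letters GAAANNGAA were found in 17.9% of the member promoters and in 8.56% of all, the AP-1 letters TGANTCA in 21.4% and 7.81%, and the STAT letters TTCNNNGAA in 7.14% and 8.3%. Members were not chosen by sequence, but neighbours such as Cxcl1, Cxcl2 and Cxcl3 arose by duplication and are not independent, so these shares are descriptions.

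Of 17 measured conventional chemokine receptors, 3 rose with FSL-1 relative to M-CSF, namely Ccr1 by 0.87, Ccr7 by 0.65 and Cxcr2 by 0.60, and the median change was 0.04. Ccr1, a receptor for Ccl6, Ccl9, Ccl3, Ccl5 and Ccl7, had 4.27 and 4.38 with FSL-1 + nutlin-3a, 5.43 and 5.74 with FSL-1, and 4.61 and 4.81 with M-CSF. Its arrays with FSL-1 + nutlin-3a lay near the median of unnamed probe sets, so the size of a fall to them is less certain. Ccr1 was lower by 1.26 with FSL-1 + nutlin-3a than with FSL-1 (adjusted p = 0.00293), the only receptor of the 17 called in that comparison, in which the median was -0.03. Ccr3 was the only one called for FSL-1 + nutlin-3a against M-CSF (log2 change 0.81). The called share of the 17 was 17.6% for FSL-1 against M-CSF, where it was 6.86% of all genes. It was 5.88% for FSL-1 + nutlin-3a against FSL-1, where 6.5% of all genes were called. For FSL-1 + nutlin-3a against M-CSF it was 5.88%, against 9.51% of all genes. When 1 array was left out, 0 to 2 receptors were called higher with FSL-1, with 0 without the first M-CSF array or the second FSL-1 array and 1 without the first FSL-1 array. Ccr3 lost its call without the second M-CSF array or either FSL-1 + nutlin-3a array. Ccr2, the receptor for Ccl2, Ccl7 and Ccl12, had 4.38 and 4.45 with FSL-1 + nutlin-3a, 4.38 and 4.26 with FSL-1, and 4.50 and 4.61 with M-CSF, near the median of unnamed probe sets, and was not called. Among 7 receptors listed as atypical, Ccrl2 alone was called. It was higher by 0.67 in FSL-1 than in M-CSF and by 0.86 in FSL-1 + nutlin-3a than in M-CSF. The first of these calls was lost without either M-CSF array or either FSL-1 array, and the second without the first FSL-1 + nutlin-3a array. In both comparisons 14.3% of the 7 were called, against 6.86% and 9.51% of all genes.

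Of 27 genes of the path from TLR2 to NF-kB, 5 rose and 1 fell with FSL-1, with a median of -0.001. The called share was 22.2%, against 6.86% of all genes. Irak3, an inhibitor of this path, rose by 1.74 (adjusted p = 0.000172), Nfkbiz, a nuclear cofactor of NF-kB, by 1.76 (adjusted p = 0.000392), Tnfaip3, the A20 ubiquitin editor, by 1.4 (adjusted p = 0.000505), Irak2, a kinase of the path, by 0.63 and Nfkbib, an inhibitor of NF-kB, by 0.48. The adaptor ligase Traf6 fell by 0.71. Tlr2 differed by 0.39 (adjusted p = 0.123), Tlr6 by -0.36 (adjusted p = 0.106), Nfkbia by 0.47 (adjusted p = 0.0685) and Rela by -0.02, none of them called. With FSL-1 + nutlin-3a relative to FSL-1, 1 gene of the 27 rose (Nfkbie, 0.66) and 2 fell (Cd14, -1.12, and Tnfaip3, -0.60), with a median of 0.09. In this comparison 11.1% of the 27 and 6.5% of all genes were called. Irak3 and Nfkbiz differed there by -0.18 and 0.15 and were not called. Relative to M-CSF, 8 genes were higher and 2 lower with FSL-1 + nutlin-3a. That was 37% of the 27, against 9.51% of all genes. Leaving out 1 array gave 3 to 4 higher genes with FSL-1 (fewest without the second M-CSF array or either FSL-1 array), 0 to 1 higher and 1 to 2 lower for FSL-1 + nutlin-3a against FSL-1 (fewest without any of the 4 compared arrays), and 4 to 7 higher and 0 to 2 lower between FSL-1 + nutlin-3a and M-CSF (0 lower without the second M-CSF array or the second FSL-1 + nutlin-3a array). The other alternatives gave 3 to 11 higher and 0 to 4 lower with FSL-1, the most with dim genes filtered and the fewest with a fold minimum of 1.5. Over all genes, those 2 settings called 1417 higher and 1243 lower of 11663, and 167 higher and 41 lower of 22180. The call of Nfkbib was lost whichever array was left out, and that of Traf6 without the first M-CSF array or either FSL-1 array. Irak2 lost its call with FSL-1 without either M-CSF array or either FSL-1 array. The calls of Irak3, Nfkbiz and Tnfaip3 against M-CSF in the FSL-1 comparison were kept under every alternative run.

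Among 14 genes of interferon signalling, limma called 0 higher in any comparison, with Irf1 alone higher at an unadjusted p under 0.05 (FSL-1 + nutlin-3a against FSL-1). Irf1 was also the only one that fell, with FSL-1 relative to M-CSF (log2 change -0.56, adjusted p = 0.0464), a call lost whichever array was left out. The called share of the 14 was 7.14% for FSL-1 against M-CSF, where it was 6.86% of all genes. In that comparison 5 of the 14 were lower at an unadjusted p under 0.05, namely Ifnar2, Ifngr1, Irf1, Irf8 and Tyk2, and 4 were called lower with dim genes filtered or with eBayes with trend and robust. Over all genes, these settings called 1243 of 11663 and 1268 of 22180 lower. That eBayes setting also called 1 of the 14 higher and 2 lower between FSL-1 + nutlin-3a and M-CSF, where it called 1548 higher and 1789 lower of all 22180 genes. Of 9 genes for the decay of chemokine mRNA, Zc3h12a, the endonuclease Regnase-1, rose by 1.19 with FSL-1 relative to M-CSF (adjusted p = 0.00163). Zfp36l1 and Zfp36l2, which bind AU-rich elements, fell by 1.38 and 0.54, the second call being lost whichever array was left out and the first without the first M-CSF array or the first FSL-1 array. Of the 9, 33.3% were called, against 6.86% of all genes. Limma called none of the 9 between FSL-1 + nutlin-3a and FSL-1, with Zfp36l2 alone at an unadjusted p under 0.05 and changes of -0.19 to 0.46. Of all genes, 6.5% were called there. Of 12 proteases that cut or shed chemokines, 6 rose with FSL-1, led by Mmp14 with a change of 4.89 and by Mmp8 (2.51), Mmp9 (2.30) and Mmp13 (2.13). The called share was 50%, against 6.86% of all genes. Human MMP-2 is known to trim CCL7. With FSL-1 + nutlin-3a relative to FSL-1, Mmp2 and Mmp9 rose by 1.08 and 0.80 and Mmp13 and Mmp8 fell by 1.67 and 0.62. Of the 12 proteases, 33.3% were called, against 6.5% of all genes. Removing any 1 of the 4 arrays in this comparison ended the call of Mmp8, and the call of Mmp9 was lost without either FSL-1 array or the second FSL-1 + nutlin-3a array, while those of Mmp2 and Mmp13 were kept with any array left out. Leaving out 1 array gave 1 to 2 higher and 1 to 3 lower proteases there, and the other alternatives 0 to 2 higher and 1 to 4 lower. Over all genes, those other alternatives gave 25 to 1090 higher and 134 to 1568 lower, the fewest with a fold minimum of 1.5. Mmp14 was at 10.74 and 10.89 with FSL-1 + nutlin-3a, 10.40 and 10.64 with FSL-1, and 5.57 and 5.69 with M-CSF, and its difference of 0.30 between FSL-1 + nutlin-3a and FSL-1 was not called (adjusted p = 0.248).

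**Figure D4:**
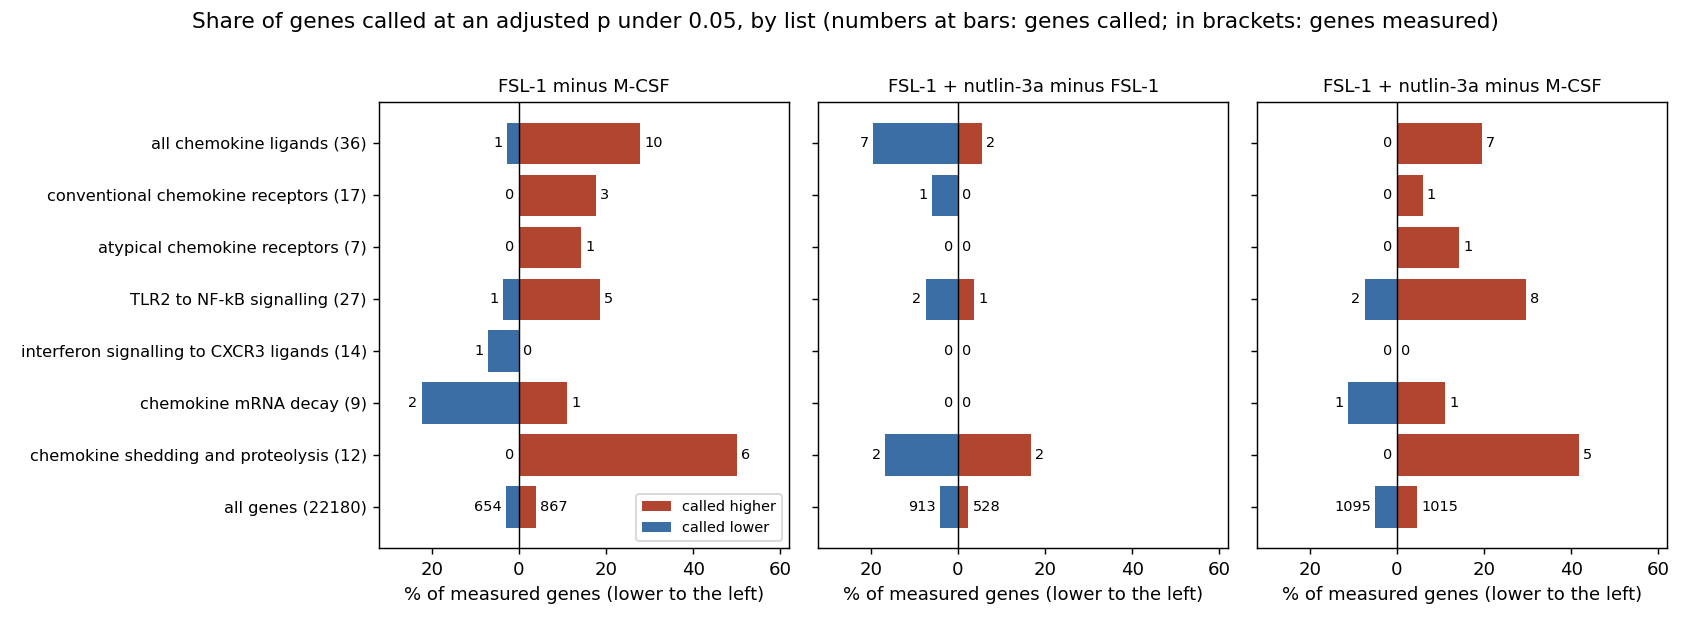
Percentage of the measured genes of each list called higher (red, to the right) or lower (blue, to the left) at an adjusted p under 0.05, with the number of genes at each bar and the number measured in brackets, for FSL-1 minus M-CSF, FSL-1 + nutlin-3a minus FSL-1 and FSL-1 + nutlin-3a minus M-CSF. Of the 36 ligands, 10 lie to the right in the first panel and 7 to the left in the second, where all genes stand at 3.91% higher and 4.12% lower.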

How the data were processed

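Gene expression was measured on 6 Affymetrix arrays, 2 for each of 3 groups taken from the labels. Per the submitters' processing notes, the authors used RMA and Affymetrix Expression Console 1.4, and the deposited values are on a log2 scale, 1 for each probe set. RMA equalises the arrays by quantiles, so a change common to most genes would not show, and array medians were 5.05 to 5.14. Precision is limited by the number of arrays. Of 34390 probe sets, 23521 name 1 gene, which gave 22180 genes, with the probe set of the highest mean kept for 1082 genes. Background intensities are not used here. The fit of all genes used lmFit and eBayes of limma 3.58.1 (R 4.3.3; all 6 arrays, 3 residual and 4.88 prior degrees of freedom), with Benjamini-Hochberg adjustment over 22180 genes and a threshold of 0.05. The scripts were tested on simulated data. Every member is named; members called in a comparison, and the other genes of their receptor class or locus, are given by array, with up to 4 called genes per related list and comparison having the smallest p, plus Tlr2, Tlr6, Nfkbia and Rela. A few further genes (Cxcl9, Cxcl10, Cxcl11, Ccl11, Ccl24, Ccr2) are given by array, and Nfkbib, Traf6 and called marker genes are named to complete their counts, chosen after their values were seen. The members and lists were chosen with earlier results of these data known, and lists share genes (Cxcr2, Ccr7). Promoter sequences come from RefSeq (GRCm38.p6), and the build behind the probe annotation was not found. Alternatives were other eBayes settings, renormalisation, centring, probe set means, a filter on dim genes, the compared groups alone, array weights, a replicate block, each array left out and a fold minimum of 1.5. A crossed block, the counts of the related lists under these alternatives, and bounds that set arrays below the median of unnamed probe sets to it were added after seeing the data.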

Additional observations from a re-analysis of the deposited data

How the results depend on the processing

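Of the 27 calls of chemokine genes, 12 were kept under every alternative and with any array left out: Ccl12, Ccl2, Ccl6, Ccl7 and Ccl8 for FSL-1 against M-CSF, Ccl12, Ccl2, Ccl7 and Ccl8 for FSL-1 + nutlin-3a against FSL-1, and Ccl4, Ccl6 and Cxcl16 between FSL-1 + nutlin-3a and M-CSF. The other 15 were lost under at least 1 setting, and 0 of the 27 changed sign. A fold minimum of 1.5, which tests for a change beyond that size, left 5 higher and 0 lower for FSL-1 against M-CSF, 0 higher and 4 lower for FSL-1 + nutlin-3a against FSL-1, and 3 higher for FSL-1 + nutlin-3a against M-CSF. Of 22180 genes, it left 167 higher and 41 lower, 25 and 134, and 158 and 212 in the same order. For FSL-1 + nutlin-3a against FSL-1, the count of higher chemokine genes was 4 with dim genes filtered and 0 with the compared groups alone. Over all genes it was 1013 of 11663 and 452 of 22180, against 528 of 22180 in the main fit. Between FSL-1 + nutlin-3a and M-CSF, eBayes with trend and robust gave 1 lower chemokine gene, Ccl9, and 1789 lower of all 22180 genes. The cause of these moves was not tested. Leaving out 1 array gave 7 to 11 higher and 0 to 1 lower genes for FSL-1 against M-CSF, with 0 lower without the first M-CSF array or either FSL-1 array. It gave 0 higher (0 to 0) and 4 to 6 lower genes for FSL-1 + nutlin-3a against FSL-1, with 4 lower without either FSL-1 array, and 5 to 7 higher between FSL-1 + nutlin-3a and M-CSF. Over all genes, fewer were called in each comparison and direction than with all 6 arrays, whichever array was left out. The group that loses an array keeps 1, taken to vary as the other groups do. The labels state no pairing of arrays by replicate number. Deviations of equally numbered arrays correlated at -0.025, 0.017 and -0.188. With 1 difference per group, these values cannot show whether the arrays were paired. With the replicate block, 0 higher and 5 lower genes were called for FSL-1 + nutlin-3a against FSL-1 (Ccl5, Ccl25, Ccl9 and Cxcl2 lost), 10 higher and 1 lower for FSL-1 against M-CSF, and 7 higher and 0 lower for FSL-1 + nutlin-3a against M-CSF. Crossing the M-CSF numbers, a replicate block chosen after seeing the data, gave, in the same order, 2 and 6, 10 and 1, and 7 and 0. Of 22180 genes, the replicate block called 340 higher and 665 lower, 692 and 475, and 826 and 899 in that order. With the numbers crossed these were 420 and 728, 744 and 534, and 945 and 1026. Among the 81 values that were not called, 35 changed sign under some alternative. With 2 arrays a group, changes near 0.5 on the log2 scale lay at the limit of what passed the threshold.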

Other observations

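The 33 chemokine probe sets that name several genes each, mostly of the Ccl19, Ccl21 and Ccl27 copies, were fitted with limma together with the probe sets of 1 gene. None of the 33 was called in any of the 3 comparisons, and 4, 7 and 2 of them had an unadjusted p under 0.05 for FSL-1 against M-CSF, FSL-1 + nutlin-3a against FSL-1, and FSL-1 + nutlin-3a against M-CSF. Their changes ran from -0.596 to 0.067 for FSL-1 against M-CSF, from -0.063 to 0.509 for FSL-1 + nutlin-3a against FSL-1, and from -0.497 to 0.33 for FSL-1 + nutlin-3a against M-CSF. Which of the copies such a probe set measures cannot be told apart.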
